A study of Homo sapiens with 21 samples.

Results

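The genes described here are 10 transcription factors and cofactors of the early heart, NKX2-5, ISL1, GATA4, GATA5, GATA6, HAND1, HAND2, MEF2A, MEF2C and MYOCD. They were chosen by gene symbol, and every transcript of them listed in any of the 6 deposited comparisons was taken. That gave 29 transcripts of all 10 genes, out of 21537 transcripts of 11851 genes listed in the series.

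These factors form a mutually reinforcing network that commits mesoderm to the heart and then switches on the contractile genes. GATA factors are zinc-finger proteins, and GATA4, GATA5 and GATA6 act early in cardiac mesoderm and in endoderm. HAND1 and HAND2 are basic helix-loop-helix proteins of the developing ventricles and limb and branchial mesenchyme, NKX2-5 and ISL1 are homeodomain proteins of cardiac progenitors, ISL1 being best known from the second heart field, and MEF2A and MEF2C are MADS-box proteins of striated muscle. MYOCD, or myocardin, does not bind DNA itself but acts as a coactivator of serum response factor in cardiac and smooth muscle.

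RNA-seq was made from the human PGP1 iPSC line and its derivatives in a stepwise differentiation. Wild-type cells were taken as iPSCs and then at the stages M (mesoderm), CMes (mesoderm of the heart), CP (its progenitors) and CM (beating cardiomyocytes), with 3 libraries each, and CMs had been selected in lactate medium. That selection followed the onset of beating, so in the CP to CM comparison stage and selection cannot be told apart. UBE2B encodes an E2 enzyme that attaches ubiquitin to histone H2B. UBE2B-/-1 and UBE2B-/-2 are clonal knockout lines of the same iPSCs, made in separate CRISPR experiments with different electroporation systems, and each gave 3 CM libraries, from wells that beat. Mutant iPSCs were plated more densely than wild type, so genotype, clone and plating cannot be told apart within a line. A replicate was a plate started at a different time. A transcript's level is an estimated count, the group mean being the back-transformed mean of natural-log values, and a change is given on the log2 scale with the standard error (SE) of the fit. Each transition compared 6 libraries, while both mutant lines and wild type were in 1 fit of 9 libraries and share the wild-type libraries. Only transcripts with a q-value of at most 0.05 are listed, and no values per library are in the tables. So the groups are described by their means and by the residual spread, and whether single libraries overlap could not be read. Called means listed with a change of at least 1.79-fold.

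UBE2B itself was called lower in UBE2B-/-1 for 1 transcript (log2 change -1.91, SE 0.53), and no UBE2B transcript was listed in UBE2B-/-2, so the RNA level checks the label of 1 line only. The defining cardiomyocyte markers moved in the direction of the stage labels, since all 8 markers of the list were called higher from CP to CM, and 5 of 6 pluripotency markers were called lower. Of all tested transcripts 8.25% were called higher and 6.99% lower there. In these bulk libraries, fewer cells of a type and less RNA per cell cannot be told apart.

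The 10 genes first rose at different transitions. From iPSC to M only GATA4 rose. Between M and CMes 7 of the 10 rose, namely GATA4, GATA5, GATA6, HAND1, HAND2, ISL1 and MYOCD. NKX2-5, MEF2A and MEF2C were first listed from CMes to CP, when 8 genes rose, and from CP to CM NKX2-5, MEF2A, MEF2C, MYOCD and HAND2 rose, as did a minor GATA4 transcript, while HAND1 and GATA5 fell. These counts can be read against the share of all tested transcripts called in the same direction. From iPSC to M, 4 transcripts of the 10 genes were called higher and 1 lower, where 1.24% and 1.62% of all 68446 tested transcripts were. From M to CMes the members had 9 called higher and 0 lower of the 9 listed, against 3.81% and 2.65% of 70285. At the next transition it was 12 higher and 0 lower of the 12 listed, against 3.8% and 2.63% of 71328. From CP to CM it was 18 higher and 3 lower of 21 distinct transcripts listed, against 8.25% and 6.99% of 69937. How many member transcripts were tested but not listed is unknown, so these counts have no denominator of their own. The median log2 change of the listed member transcripts was 5.13, 4.38, 2.62 and 2.83 at the 4 transitions, where that of all listed transcripts was -0.47, 0.57, 0.40 and 0.63. With the members at 0 in a whole group set to the floor of 3 counts, the first 2 of these medians were 4.63 and 3.29 and the others did not move. With a t distribution in place of the normal one that Sleuth uses, 0 members were called at the first 3 transitions and 4 from CP to CM (NKX2-5-201, MEF2A-205, MYOCD-203 and HAND1-201).

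**Figure D1:**
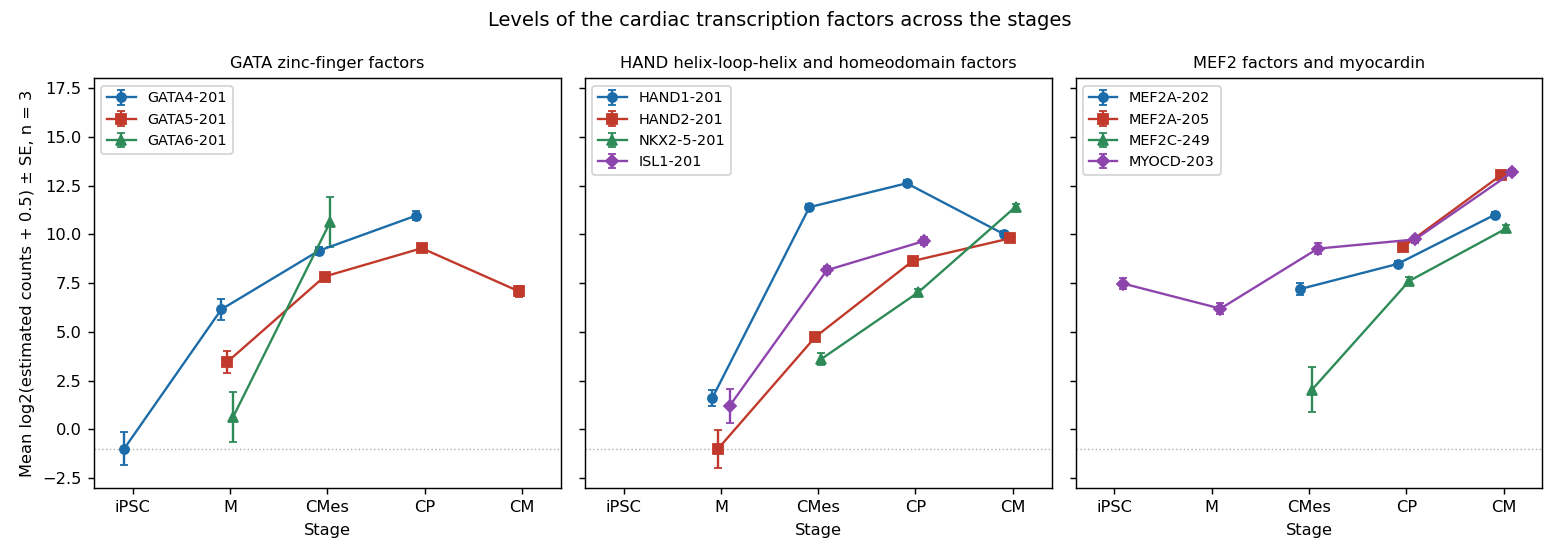
Mean log2(estimated counts + 0.5) of a main transcript of each gene at the 5 stages (x axis), n = 3 libraries, all on the scale of the CP and CM comparison. MEF2A is shown by MEF2A-202 and MEF2A-205, and MEF2C by MEF2C-249. Bars are an SE of the level, derived from the smallest SE of a change over its comparisons and shorter than the SE of that change. The dotted line is a count of 0. A stage without a point is one where no comparison listed the transcript. GATA4 rose at M, HAND1, GATA6 and ISL1 among others at CMes, and HAND1 and GATA5 turned down at CM while NKX2-5, MEF2A, MEF2C and MYOCD reached their highest levels.

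GATA4 was the first member to rise. GATA4-201 (ENST00000335135.8) was at 0 in every iPSC library and at a mean of 74.2 estimated counts at M, at least 24.7-fold above the floor of 3 counts per library (q = 1.7e-07). Another transcript, ENST00000647274.1, which is not in GENCODE 44, was also at 0 in every iPSC library and reached 94.0 at M. The shorter GATA4-205 went from 4.91 to 74.4 (log2 change 3.79, SE 0.96), and ENST00000646696.1 from 2.39 to 100.4 (log2 change 5.13, q = 0.017). So all 4 listed GATA4 transcripts were near 0 in iPSCs and stood between 74.2 and 100.4 at M.

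GATA4 kept rising. From M to CMes GATA4-201 went from 79.4 to 639 estimated counts, an 8.06-fold rise (SE 0.75 on the log2 scale), ENST00000646696.1 from 107.4 to 743 and ENST00000647274.1 from 100.6 to 606. The former 2 rose again from CMes to CP, GATA4-201 from 643 to 2250 (log2 change 1.81, SE 0.31) and ENST00000646696.1 from 748 to 2410 (log2 change 1.69, SE 0.21). From CP to CM these main transcripts were not listed. A minor pair of identifiers with identical values, ENST00000528027.1 and ENST00000646425.1, counted here as 1, rose from 13.3 to 53.9 (log2 change 1.98, SE 0.72, q = 0.035).

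GATA6-201 (ENST00000269216.8, chr18:22169589-22202528, + strand) had the largest fitted change of any member at the M to CMes step, from 1.24 to 1800 estimated counts (log2 change 10.02, SE 1.80). Its residual SD was 2.20 on the log2 scale, the widest of the listed member transcripts, so its replicates differed far more than those of HAND1 (SD 0.32). It was listed at no later transition. GATA5-201 (ENST00000252997.3, chr20:62463497-62475995, - strand) went from 11.8 to 256 over the same step (log2 change 4.38, SE 0.80) and from 257 to 706 from CMes to CP (log2 change 1.45, SE 0.15). It then fell from 625 to 134 from CP to CM (log2 change -2.21, SE 0.42). Of the GATA members, GATA5 was the one listed as falling from CP to CM.

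The HAND factors rose at the same step as GATA6. HAND1-201 (ENST00000231121.3, chr5:154474972-154478227, - strand) went from 2.89 estimated counts at M to 3025 at CMes (log2 change 9.80, SE 0.58) and then to 7118 at CP (log2 change 1.23, SE 0.21). It fell from 6303 at CP to 1030 at CM (log2 change -2.61, SE 0.24, q = 2.8e-26). HAND2-201 (ENST00000359562.4, chr4:173526091-173530229, - strand) was at 0 in every M library and at 29.4 at CMes, at least 9.81-fold above the floor of 3 counts. From there it rose from 29.6 to 448 by CP (log2 change 3.90, SE 0.30) and from 396 to 887 by CM (log2 change 1.16, SE 0.24). The 2 HAND genes therefore moved in opposite directions from CP to CM, although both rose at the transitions before.

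Of the homeodomain factors, ISL1 preceded NKX2-5. ISL1-201 (ENST00000230658.12, chr5:51383448-51394730, + strand) went from 2.09 to 321 estimated counts from M to CMes (log2 change 6.96, SE 1.22) and from 324 to 914 from CMes to CP, a 2.83-fold rise (SE 0.31 on the log2 scale), and it was not listed from CP to CM. The full-length NKX2-5-201 (ENST00000329198.5, chr5:173232109-173235206, - strand) stood at 13.2 at CMes and 147 at CP (log2 change 3.43, SE 0.45), and went from 130 at CP to 2736 at CM (log2 change 4.39, SE 0.22, q = 5.6e-87). All 4 NKX2-5 transcripts of GENCODE 44 were called higher from CP to CM. The shorter NKX2-5-202 went from 19.1 to 357 (log2 change 4.19, SE 0.53) and NKX2-5-203, which is annotated without its end, from 4.41 to 163 (log2 change 5.06, SE 0.94). NKX2-5-204 was at 0 in every CP library and at 83.2 at CM, at least 27.7-fold above the floor.

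MEF2C, like NKX2-5, was first listed from CMes to CP. MEF2C-249 (ENST00000637481.1) went from 4.10 estimated counts at CMes to 220 at CP (log2 change 5.58, SE 1.62), and MEF2C-217 (ENST00000510942.5) from 0 in every CMes library to 110.3, at least 36.8-fold above the floor. MEF2C-213 went from 8.09 to 97.5 (log2 change 3.51, SE 1.01) and MEF2C-202 from 0.922 to 38.0 (log2 change 4.76, SE 1.59, q = 0.030). From CP to CM 5 MEF2C transcripts were called higher, led by MEF2C-249, which went from 195 to 1267 (log2 change 2.70, SE 0.28). MEF2C-213 went from 86.4 to 404 and MEF2C-217 from 97.7 to 340. MEF2C-203 reached 62.3 from 0.604, and MEF2C-201 reached 26.6 from 0 in every CP library, at least 8.85-fold above the floor (q = 0.048).

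MEF2A, the more widely expressed of the pair, rose from a higher base. MEF2A-202 (ENST00000354410.9, chr15:99565700-99716466, + strand) had 165 estimated counts at CMes, rose to 403 at CP (log2 change 1.29, SE 0.45, q = 0.040) and went from 357 to 2056 from CP to CM (log2 change 2.52, SE 0.23). MEF2A-205 (ENST00000557942.5, chr15:99565984-99716488, + strand) went from 663 to 8332 (log2 change 3.65, SE 0.19, q = 1.8e-76). MEF2A-207 was at 0 in every CP library and at 120.6 at CM, at least 40.2-fold above the floor, and MEF2A-206 and MEF2A-211, both annotated without their ends, reached 55.5 and 63.9 from 6.89 and 9.87. All 5 listed MEF2A transcripts were higher at CM.

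MYOCD was the only member that fell at the first step. MYOCD-203 (ENST00000425538.5, chr17:12665890-12768949, + strand), the MANE transcript, went from 186 estimated counts in iPSCs to 76.2 at M (log2 change -1.28, SE 0.40, q = 0.033). It rose from 81.5 to 691 by CMes (log2 change 3.08, SE 0.39), was not listed from CMes to CP, and rose from 855 at CP to 9320 at CM (log2 change 3.45, SE 0.22, q = 2.2e-50). Its level at CMes and CP, read from the neighboring comparisons and put on 1 scale, was 616 and 855, a log2 difference of 0.47 with no test. The 5-exon MYOCD-205, annotated as a target of nonsense-mediated decay, rose from 19.0 to 138 from CP to CM (log2 change 2.83, SE 0.49). MYOCD-201, which has 13 exons to the 14 of MYOCD-203, went the other way, from 58.6 at CP to 0 in every CM library, at least 19.5-fold above the floor at CP. It was the only transcript of the 10 genes that was lower while another transcript of its gene was higher. Kallisto divides reads among transcripts that share most of their exons, so levels of such overlapping transcripts are uncertain.

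**Figure D2:**
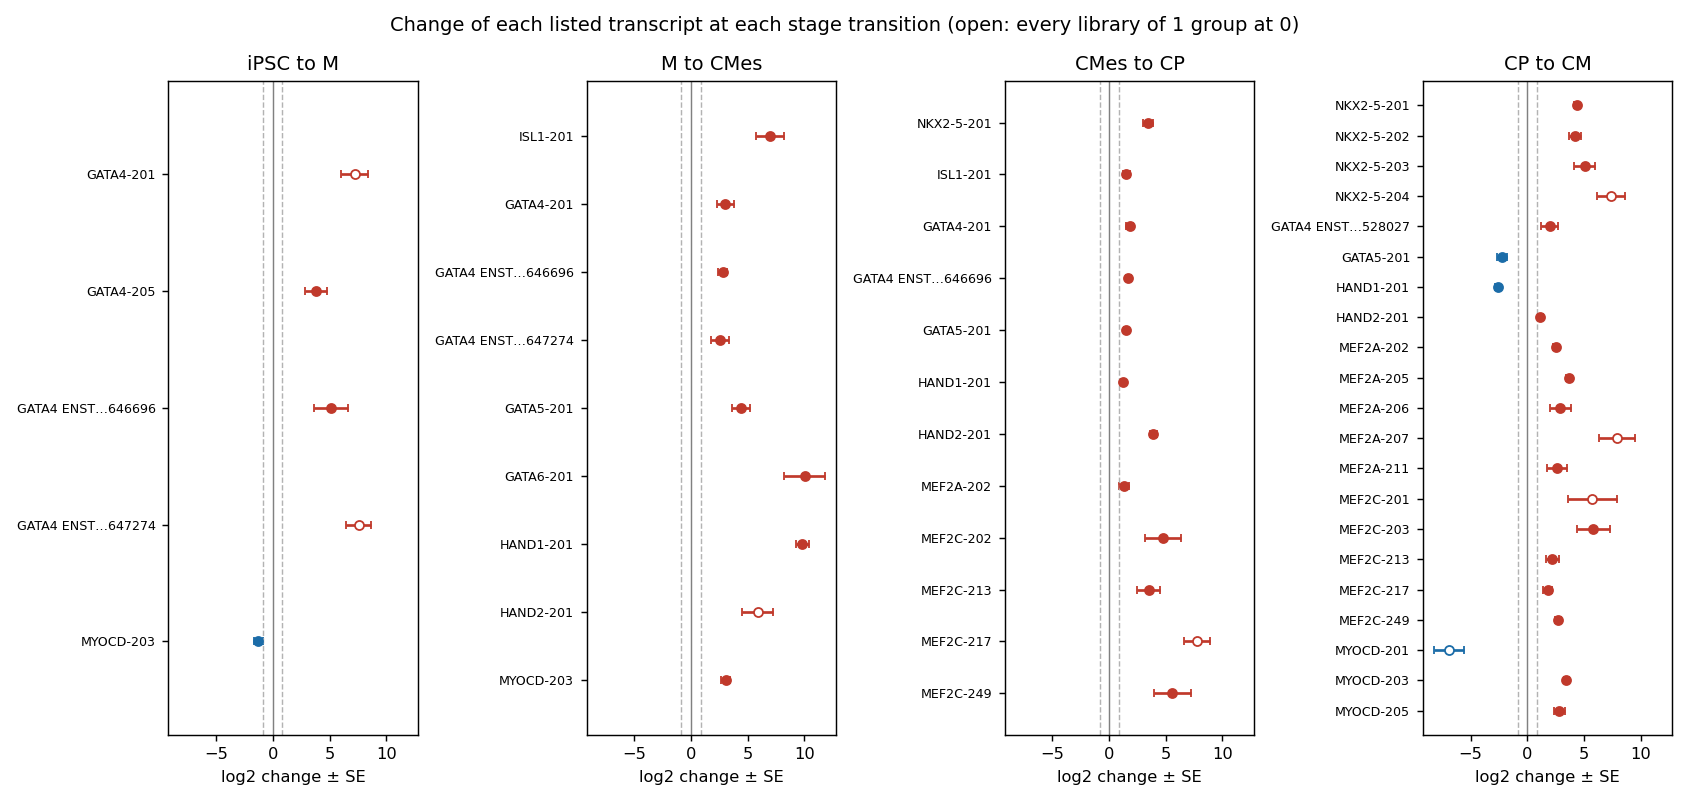
Log2 change (x axis) with SE of every listed transcript of the 10 genes at the 4 transitions; red is higher and blue lower at the later stage, dashed lines mark the limit of a 1.79-fold change, and open points have every library of 1 group at 0, so their position depends on the pseudocount of 0.5. Points left of 0 are MYOCD-203 at M and GATA5, HAND1 and MYOCD-201 at CM.

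Estimated counts divided by annotated transcript length allow the genes to be ordered within a stage. At CMes the leading transcript of HAND1 stood at 1585 estimated counts per kilobase, above GATA6 (443), GATA4 (167), ISL1 (120), GATA5 (87.0), MYOCD (71.9), MEF2A (25.1), HAND2 (9.41), NKX2-5 (7.46) and MEF2C (3.78). Neighbors in this order were set against 2 SE of their difference, formed from the smaller SE of each level over its comparisons and as if errors were independent, because the tables give no covariance, so this is a description and no test. On that scale only the steps from MYOCD down to MEF2A and from MEF2A down to HAND2 were wider than 2 SE. MEF2A was ranked at CMes by MEF2A-202, because MEF2A-205 has no value there, and by MEF2A-205 at CP and CM. MEF2A-202 had 61.3 per kilobase at CP, below MEF2A-205. The place of MEF2A at CMes and both of these steps therefore depend on which transcript was listed. At CP, HAND1 led with 3706 per kilobase, followed by GATA4 (584), ISL1 (338), GATA5 (239), HAND2 (143), MEF2A (119), MYOCD (99.9), NKX2-5 (83.6) and MEF2C (45.9). HAND2 and MEF2A lay within 2 SE of each other, as did MEF2A and MYOCD and also MYOCD and NKX2-5. GATA6 has no value at CP, as it was listed in neither comparison with CP. At CM the order had turned over, with NKX2-5 at 1756 per kilobase, MEF2A at 1493, MYOCD at 1088, HAND1 at 606, HAND2 at 319, MEF2C at 215 and GATA5 at 51.3. NKX2-5 and MEF2A lay within 2 SE of each other, as did HAND2 and MEF2C. GATA4, GATA6 and ISL1 have no value at CM, as their main transcripts were not listed in that comparison.

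**Figure D3:**
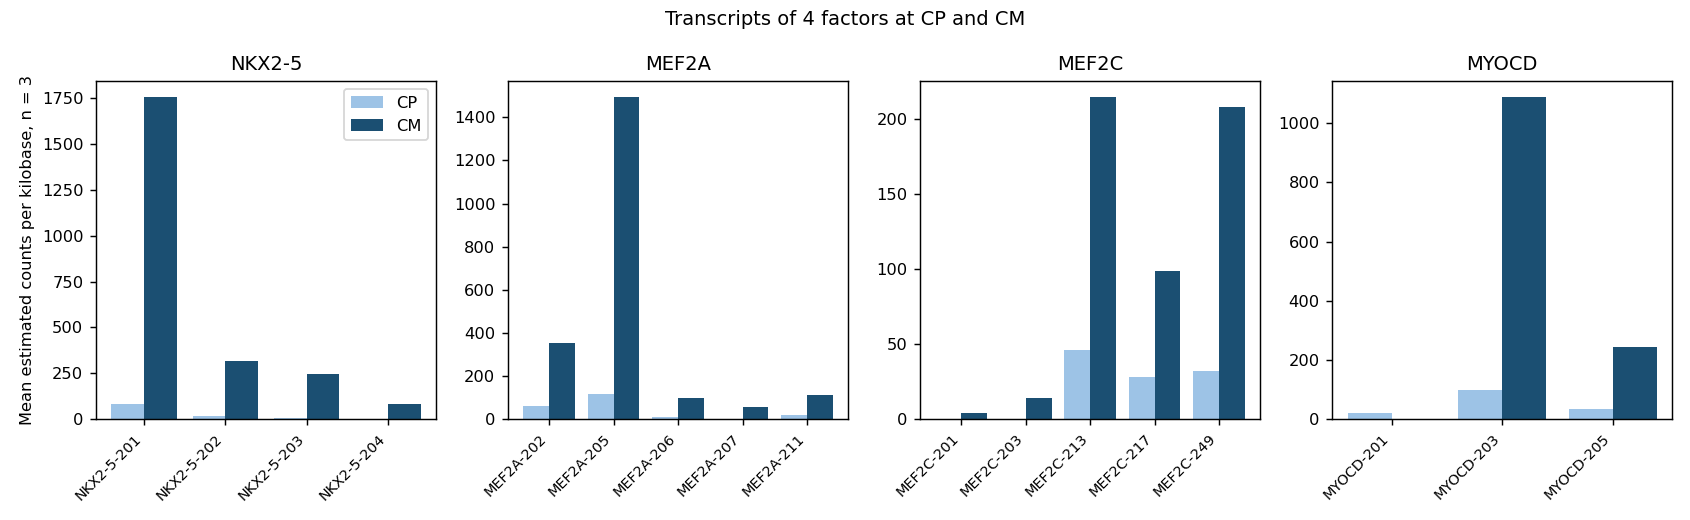
Mean estimated counts per kilobase of annotated transcript (y axis, from 0, a separate scale for each gene) at CP (light bars) and CM (dark bars) for the listed transcripts of NKX2-5, MEF2A, MEF2C and MYOCD, n = 3 libraries a group, without error bars; the SE of each change is in the plot of changes at the 4 transitions. MEF2A-205 stood above the other MEF2A transcripts at CM, at 1493 per kilobase to 353 for MEF2A-202, and MYOCD-201 was the only one with a bar at CP alone.

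The leading MEF2A transcripts differ in coding exons, and the exons that mark MEF2A-205 are printed here because the 2 forms had different log2 changes. MEF2A-205 and MEF2A-207 include an exon of 132 bases and a small exon of 24 bases that MEF2A-202 skips. MEF2C transcripts differ too, with a 144-base exon in MEF2C-203, MEF2C-213, MEF2C-217 and MEF2C-249 against a 138-base exon in MEF2C-201 and MEF2C-202 (MEF2C-201 also holds 60 bases of the former), and a 24-base exon that of the 6 compared transcripts only MEF2C-203 includes. Below, the exon is in capitals with 10 intron bases in lower case on each side, read from GRCh38 in the direction of transcription at GENCODE 44 coordinates.
MEF2A 132-base exon, chr15:99671323-99671454, + strand: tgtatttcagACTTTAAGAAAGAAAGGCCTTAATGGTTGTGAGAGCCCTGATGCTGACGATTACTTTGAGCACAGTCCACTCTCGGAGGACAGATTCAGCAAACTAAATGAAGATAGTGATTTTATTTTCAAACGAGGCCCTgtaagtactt
MEF2A 24-base exon, chr15:99703362-99703385, + strand: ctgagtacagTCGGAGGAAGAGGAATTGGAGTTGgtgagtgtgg
MEF2C 144-base exon, chr5:88761185-88761328, - strand: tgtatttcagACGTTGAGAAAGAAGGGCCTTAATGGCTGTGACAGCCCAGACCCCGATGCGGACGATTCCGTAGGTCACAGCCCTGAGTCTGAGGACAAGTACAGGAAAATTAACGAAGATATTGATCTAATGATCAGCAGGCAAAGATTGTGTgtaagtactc
MEF2C 138-base exon, chr5:88760988-88761125, - strand: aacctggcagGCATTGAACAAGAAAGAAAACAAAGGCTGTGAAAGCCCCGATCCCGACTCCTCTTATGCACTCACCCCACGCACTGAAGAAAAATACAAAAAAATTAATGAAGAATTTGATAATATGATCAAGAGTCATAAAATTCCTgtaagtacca
MEF2C 24-base exon, chr5:88730211-88730234, - strand: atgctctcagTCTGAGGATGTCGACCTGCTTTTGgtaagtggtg

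The 24-base exons of the 2 genes are equal at 15 of 24 positions (62.5%). From CP to CM, MEF2A-205 with the 132-base and 24-base exons rose by 3.65 (SE 0.19) on the log2 scale and MEF2A-202 without them by 2.52 (SE 0.23). The difference between these transcripts was not tested. For MEF2C, MEF2C-249 with the 144-base exon stood at 1267 estimated counts at CM, where MEF2C-201 with the 138-base exon had 26.6. MEF2C-202, which also has the 138-base exon, was not listed from CP to CM, so its level at CM is unknown. MEF2C-203, which has both the 144-base and the 24-base exon, had 62.3 at CM.

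At the M to CMes step HAND1, HAND2, ISL1 and GATA6 rose together, so the 250 bases before their RefSeq start sites are shown. RefSeq promoters of GRCh38.p14 were at hand for 6 of the 10 genes (HAND1, HAND2, ISL1, GATA6, MEF2A and MEF2C), with 14 start sites in all. Capitals mark matches on either strand to a GATA word, here GATA with A or T before it and A or G after it, and to the E-box CANNTG, the word that helix-loop-helix proteins read.
HAND1, chr5:154478228-154478477, - strand: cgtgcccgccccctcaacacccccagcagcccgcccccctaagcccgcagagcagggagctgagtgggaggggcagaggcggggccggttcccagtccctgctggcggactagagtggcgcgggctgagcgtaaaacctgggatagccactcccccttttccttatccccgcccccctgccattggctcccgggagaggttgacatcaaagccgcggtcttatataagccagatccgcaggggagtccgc
HAND2, chr4:173530230-173530479, - strand: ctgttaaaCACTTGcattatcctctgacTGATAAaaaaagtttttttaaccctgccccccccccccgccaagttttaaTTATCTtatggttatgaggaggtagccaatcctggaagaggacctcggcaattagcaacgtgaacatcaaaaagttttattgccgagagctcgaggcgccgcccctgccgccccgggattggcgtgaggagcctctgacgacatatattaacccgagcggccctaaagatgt
ISL1, chr5:51383198-51383447, + strand: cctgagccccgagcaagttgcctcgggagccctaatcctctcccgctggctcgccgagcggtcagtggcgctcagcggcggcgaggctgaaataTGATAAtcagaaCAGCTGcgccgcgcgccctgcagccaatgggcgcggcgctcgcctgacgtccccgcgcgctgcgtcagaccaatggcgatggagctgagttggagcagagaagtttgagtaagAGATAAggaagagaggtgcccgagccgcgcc
GATA6, chr18:22169339-22169588, + strand: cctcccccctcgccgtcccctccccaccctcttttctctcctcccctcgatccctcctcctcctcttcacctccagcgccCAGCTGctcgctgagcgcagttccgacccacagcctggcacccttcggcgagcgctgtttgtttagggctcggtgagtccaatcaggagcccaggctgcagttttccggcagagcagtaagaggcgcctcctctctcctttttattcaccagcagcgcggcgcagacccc

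HAND2 held 2 GATA words, starting 222 and 172 bases before the start site, and an E-box at 242 bases. ISL1 also held 2, at 156 and 31 bases, and an E-box at 144 bases. GATA6 had an E-box at 170 bases and no GATA word, and the HAND1 window had neither. Of all 35116 promoters in the table, 22.3% held a GATA word and 61.8% an E-box in these 250 bases, and 5 and 7 of the 14 member start sites did. The MEF2 word CTANNNNTAG was found on either strand in 1 member window, 23 bases before a MEF2A start site, and in 2.36% of all promoters. The NKX2-5 word AAGTG was found on either strand in 7 member windows, all of HAND2 or MEF2C, and in 37.6% of all promoters. The HAND2 E-box overlaps its AAGTG match. A match is a description of the letters in this window only.

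In the mutants, MYOCD, MEF2A and MEF2C were called lower, and 1 GATA4 transcript higher, in UBE2B-/-1 and in UBE2B-/-2. NKX2-5, ISL1, GATA6, HAND1 and HAND2 were listed in neither. In UBE2B-/-1, 1 transcript of the 10 genes was called higher and 5 lower, where 2.18% and 1.72% of all 65457 tested transcripts were. In UBE2B-/-2, 2 were called higher and 4 lower, against 2.46% and 1.53%. In both lines together it was 1 higher and 4 lower, against 1.52% and 0.909%. The lines share their wild-type libraries, so agreement between them is not independent. With a t distribution in place of the normal one, 0 members, and 0 of all transcripts, were called in either line.

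MYOCD-203 averaged 10755 estimated counts in the wild-type libraries, 3664 in UBE2B-/-1 and 4122 in UBE2B-/-2. Its log2 change was -1.55 (SE 0.20, q = 1.4e-11) and -1.38 (q = 3.4e-09) in the 2 lines, with a residual SD between replicates of 0.22. The mean change of both lines was -1.47 (SE 0.17), or 2.77-fold. MYOCD thus had the smallest error of the members here and a change several times the replicate spread.

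MEF2A-205 had 9615 estimated counts in wild type against 2871 and 2974 in UBE2B-/-1 and UBE2B-/-2. Its log2 change was -1.74 and -1.69 (SE 0.35), q = 0.00014 and 0.00024. MEF2A-202, the form without these exons, had 2373 against 977 and 1112, with changes of -1.28 and -1.09 (SE 0.34), q = 0.0071 and 0.031. Both forms of MEF2A were therefore lower in both lines.

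MEF2C-249 went from 1462 estimated counts in wild type to 443 and 465, with log2 changes of -1.72 and -1.65 (SE 0.31). MEF2C-217 was listed for UBE2B-/-1 only, with 393 in wild type and 138 in that line (log2 change -1.51, SE 0.44, q = 0.022). Its value in UBE2B-/-2 was solved from the variance columns as 197 estimated counts, a log2 change of -0.99, whose q-value is above 0.05 since it is not listed. The difference between the lines for MEF2C-217 was 0.52 (SE 0.44).

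GATA4 ENST00000647274.1 was the member higher in both lines, at 544 estimated counts in wild type, 1525 in UBE2B-/-1 and 1917 in UBE2B-/-2. Its log2 changes were 1.49 and 1.82 (SE 0.32), q = 0.00051 and 6.2e-06, and no other GATA4 transcript was listed in the mutants, so a change of the gene as a whole is not shown. GATA5 was called higher in UBE2B-/-2 only, at 908 against 155 in wild type (log2 change 2.55, SE 0.72, q = 0.014). In UBE2B-/-1 its solved value was 607, a log2 change of 1.97 that did not pass. The line difference for GATA5 was 0.58 (SE 0.72). Over the 7 member transcripts listed in either line, the smallest Benjamini-Hochberg adjusted p of a difference between the lines was 0.73 by the Wald test, so none passed, which does not show that the lines are alike.

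**Figure D4:**
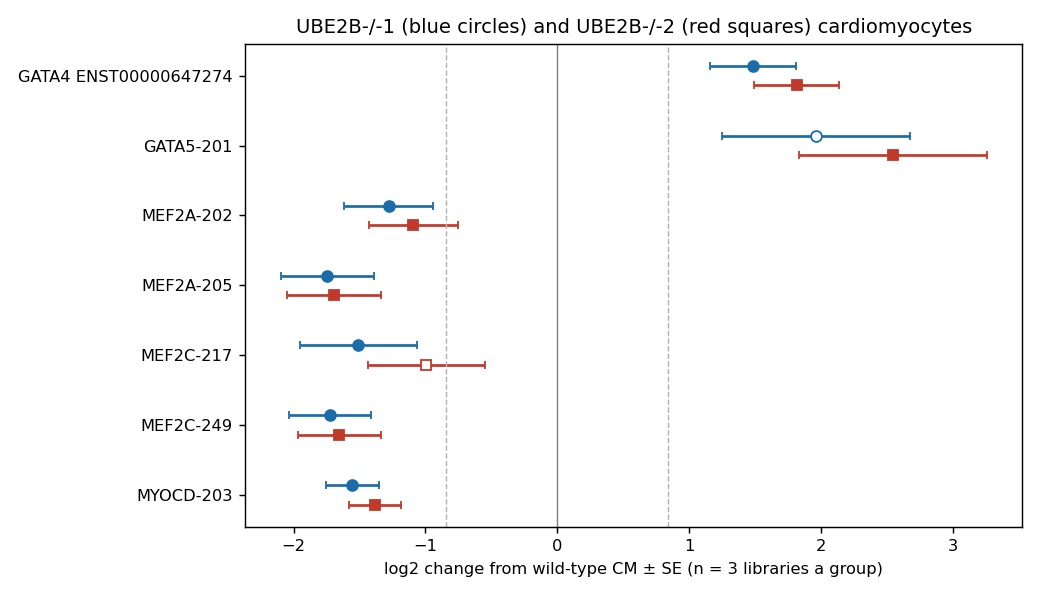
Log2 change from wild-type CM (x axis) with SE for the 7 member transcripts listed in either line, UBE2B-/-1 as circles and UBE2B-/-2 as squares; open symbols are values solved from the variance columns for the line where the transcript is not listed, and dashed lines mark the limit of a 1.79-fold change. All 5 MYOCD, MEF2A and MEF2C transcripts lie left of 0 in both lines, and GATA4 and GATA5 lie right of it.

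Set beside the CP to CM step, the members lower in the mutants had all been called higher from CP to CM. MYOCD-203, MEF2A-205, MEF2A-202, MEF2C-249 and MEF2C-217 had log2 changes of 3.45, 3.65, 2.52, 2.70 and 1.80 from CP to CM and of -1.47, -1.72, -1.19, -1.69 and -1.25 as the mean of both lines. GATA5 had -2.21 and 2.26. The means for GATA5 and MEF2C-217 each rest on a solved value for the line in which the transcript was not listed. NKX2-5-201, HAND2-201 and HAND1-201, with log2 changes of 4.39, 1.16 and -2.61 from CP to CM, were listed in neither line. Both comparisons use the wild-type CM libraries, so these pairs of values are given as a description with no test.

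In the gene lists that follow, a gene is counted by its listed transcript with the highest mean. The percentages beside them are shares of tested transcripts and not of genes, so the measures are unlike. Partner and upstream factors of the 10 genes changed in both directions. Of 22 such genes, 12 were called higher and 1 lower from M to CMes (3.81% and 2.65% of all transcripts), among them TBX20, a T-box partner of GATA and NKX2-5 proteins (1.02 to 151 estimated counts), and BMP4, the signal that induces cardiac mesoderm (74.3 to 1206). From CMes to CP 11 were called higher and 4 lower (3.8% and 2.63% of all transcripts), the latter being EOMES, MESP1, MESP2 and TBXT, factors of early mesoderm. EOMES went from 2549 to 106.8 at that step. From CP to CM 9 were called higher and 6 lower (8.25% and 6.99%). SMYD1, a muscle methyltransferase and known MEF2C target, went from 856 to 36274 (log2 change 5.41, SE 0.33), SRF, the partner of MYOCD, from 1586 to 3620, and BMP4 fell from 2113 to 50.7. That BMP4 transcript is not the one given from M to CMes. The median log2 change of the list was 3.92, 1.09 and 1.28 at these transitions, the first being 3.66 with genes at 0 set to the floor of 3 counts. In both mutant lines 1 of the 22 was called in the same direction, SMYD1, with 41859 estimated counts in wild type against 15431 and 12466.

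Paralogs of the members did not follow one pattern. GATA2 and GATA3, known from blood, trophoblast and ectoderm, were called higher from M to CMes (5.45 to 145 and 1.02 to 416 estimated counts) and again from CMes to CP, and were called lower from CP to CM, with log2 changes of -3.80 (SE 0.42) and -4.09 (SE 1.19). The GATA3 transcript after the M to CMes step is not the one given for that step. MEF2D, a broadly expressed paralog of MEF2A, rose from 644 to 2075 from CP to CM. Over the 10 paralogs, 2, 4 and 1 were called higher and 1, 0 and 4 lower at the last 3 transitions, and none was listed from iPSC to M. Of all tested transcripts, 3.81%, 3.8% and 8.25% were called higher and 2.65%, 2.63% and 6.99% lower at these transitions. In both mutant lines MEF2B alone was called, higher from a wild-type level of 0. No antisense or neighboring noncoding RNA of the 6 on that list was listed in any comparison.

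Most textbook targets of the factors in cardiomyocytes were called higher by the last transition. Of 30 targets, 7 were listed from iPSC to M, 1 called higher and 6 lower (1.24% and 1.62% of all transcripts). Their median log2 change was -3.01, or -2.69 with genes at 0 set to the floor of 3 counts. From M to CMes 12 were called higher and 0 lower (3.81% and 2.65% of all transcripts). The median log2 change there was 5.89, or 3.30 with genes at 0 set to that floor. From CMes to CP 16 were called higher and 3 lower, namely GJA1, NEBL and CKM (3.8% and 2.63% of all). NEBL was read there from another transcript than at the other transitions. Into CM, 28 were called higher and 1 lower (8.25% and 6.99%). The median log2 changes at these transitions were 3.81 and 5.32. TNNT2, cardiac troponin T, went from 275 to 17821 estimated counts from CP to CM, and PLN, the inhibitor of the calcium pump, from 256 to 49972, while GJA1 was the target called lower. In the mutants 17 and 22 of the 30 were called lower and none higher, where 1.72% and 1.53% of all tested transcripts were called lower. In both lines 17 were called lower, against 0.909% of all. The median log2 change of these 17 was -1.69, and its direction was fixed by the call. MYL4, MYL7, TNNI1, TNNT2 and MYOM1 were counted in both lines through other transcripts than those that stood for them from CP to CM. The MYOM1 transcript that stood for it from CP to CM was called lower in UBE2B-/-2 only. TTN, the giant sarcomere spring protein, had 143479 in wild type against 15994 and 21457, PLN 57665 against 14447 and 14464, and NPPA, atrial natriuretic peptide, 26994 against 5844 and 2473. Repressors of the members included HDAC7, a class IIa histone deacetylase that binds MEF2 proteins. HDAC7 was called lower from CP to CM (from 1244 at CP, log2 change -2.32, SE 0.28) and higher in both mutant lines, at 287 in wild type against 1285 and 1408 (mean log2 change 2.23, SE 0.30). HDAC9, of the same class, rose from 31.1 to 393 from CP to CM. Of the 8 repressors, 4 were called higher and 1 lower at that step (8.25% and 6.99% of all transcripts). In both lines 1 was called higher and 0 lower (1.52% and 0.909% of all transcripts).

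Markers of other cell types moved at the same transitions, and their part in the changes of the 10 genes was not tested. From M to CMes, where GATA4, GATA6 and HAND1 rose, 6 of 10 endoderm and epithelial markers were called higher, including FOXA2 (96.9 to 890) and HNF4A, which left 0 in every M library and reached 213, although the summed level of the 8 listed went from 16633 to 13074. From CMes to CP, where 8 of the 10 genes rose, 6 of these 10 markers were called higher and 1 lower, and the summed level of the 9 listed went from 6655 to 36182 estimated counts, with TTR at 16366 at CP. At the same step 4 of 6 epicardial and fibroblast markers were called higher, with a sum going from 1643 to 39506, and 2 of 4 smooth muscle markers, with a sum going from 447 to 5675. From CP to CM, where HAND1 and GATA5 fell, 8 of the 10 endoderm and epithelial markers were called lower and their summed level went from 26361 to 1979 estimated counts, with TTR falling from 14493 to 516. Lactate selection came between these groups, so its part cannot be told apart from that of the stage. In the same comparison the summed level of the 8 cardiomyocyte markers went from 31223 to 637898, that of the 4 smooth muscle markers from 7968 to 24342, and that of 2 listed of 4 endothelial markers from 4949 to 637. Of the 6 epicardial and fibroblast markers, POSTN (97.7 to 361) and COL1A1 (45.4 to 135) were called higher and LUM (5201 to 410) and WT1 lower, and the COL1A1 transcript is not the one listed from CMes to CP. At the first 3 transitions 2, 4 and 7 of the 8 cardiomyocyte markers were listed. The 2 at the first, ACTC1 and TTN, were called lower, and the 4 and 7 were all called higher.

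In the mutants, where MYOCD, MEF2A and MEF2C were lower, 5 of the 8 cardiomyocyte markers were called lower in both lines (0.909% of all tested transcripts). ACTC1 and MYH6 were called lower in UBE2B-/-2 only, and MYH7 was listed in neither line. The summed level of the 5 went from 213065 in wild type to 36808 and 36302, with TTN at 143479 of the wild-type sum. MYL7 was read from a transcript at 487 in wild type, not the one that stood for it from CP to CM. TNNT2 was also read from another transcript than from CP to CM. The median log2 change of the 5 was -1.68. This sum and median cover only markers called lower in both lines, so their direction was fixed by the call. The fibroblast marker DCN was called higher in both lines, at 6.66 in wild type against 636 and 1804, and COL1A1 and LUM were called higher in UBE2B-/-2 only. Of the smooth muscle markers CNN1 was called lower in both lines, through another transcript than the one that stood for it at the transitions. Of the endoderm and epithelial markers, SOX17 was called higher in UBE2B-/-1 only (log2 change 2.18, SE 0.57). EPCAM, also through another transcript, was called lower in UBE2B-/-2 only (log2 change -5.64, SE 1.78). The endothelial marker KDR was called higher in UBE2B-/-2 only (log2 change 1.79, SE 0.55). No pluripotency or skeletal muscle marker was listed in either line. Whether the members fell further than other cardiomyocyte transcripts was not tested.

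The genes whose changes were most like a member's were found among transcripts listed at the same 3 transitions, by the root mean square difference in log2 change, which for transcripts at 0 in a group depends on the pseudocount. For GATA5 these were PKDCC (0.17), IGFBP6 (0.35) and CRB2 (0.38) among 1326 transcripts over M to CMes, CMes to CP and CP to CM. Over the same transitions HAND2 was nearest to MYL7 (0.82), SLIT3 (0.92) and IGF2 (0.97), and HAND1 to PHLDB2 (1.00), SYTL5 (1.04) and HNF4A (1.06). MYOCD-203 was nearest to LOX (0.43), HSPB8 (0.72) and CCL2 (0.76) among 751 transcripts over iPSC to M, M to CMes and CP to CM. GATA4-201 was nearest to FOXA2 (0.64), TNRC18 (0.74) and TBX3 (1.43), and GATA4 ENST00000646696.1 to TBX3 (0.38), GREB1L (0.98) and HOXB2 (1.24), among 684 transcripts over the earlier 3 transitions.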

How the data were processed

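RNA-seq of 21 human libraries was used, 3 in each of 7 groups taken from the sample titles. Per the labels and methods, the authors used the FASTX-Toolkit to trim reads and Kallisto to quantify transcripts on hg38, and compared groups by the Wald test in Sleuth. They deposited 6 tables that list transcripts with a q-value of at most 0.05. Each gives the p-value and q-value, the effect b with its SE and the mean observation, which the authors deposited on a natural log scale of normalized estimated counts + 0.5, and variance scores, which are on the squared natural log scale and which the authors' Sleuth fit computed. The 6 tables hold 0 columns of values per library, so depth is unknown and only the SE of the fit measures precision.

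The members and gene lists were chosen with earlier results of these data known. All values were recomputed with Python 3.11.15, pandas 2.3.3 and scipy 1.17.1: b divided by its SE gave the deposited p-value, and p-value, rank and q-value gave the number of transcripts tested. Log2 change is b divided by the natural log of 2. A call needed a q-value no higher than 0.05 and a size of b from log2(1.5) up. Group means came from b and the overall mean, and the scales of neighboring tables were joined by the median offset of shared transcripts (1.01-fold to 1.15-fold). For a line in which a transcript is not listed, b was solved from the variance columns, and the solution nearer the wild-type mean of the CP to CM table was taken. The difference between lines was divided by the SE of 1 line. The steps were tested on simulated data. All members are named, the transcript with the highest mean stands for a list gene, and the 3 genes of most similar pattern are named per member listed at 3 transitions or more. The authors' own called lists were not used. Annotation and exons came from GENCODE 44 on GRCh38, promoters from RefSeq. A further exon is not reported here.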

Additional observations from a re-analysis of the deposited data

How the results depend on the processing

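The calls depend most on the distribution behind the test. With a t distribution on 4 residual degrees of freedom (6 in the UBE2B-/- fit) in place of the normal distribution that Sleuth uses, 0 member transcripts were called from iPSC to M, M to CMes or CMes to CP, 4 from CP to CM (3 higher and 1 lower), and 0 in either UBE2B-/- line. The 4 were NKX2-5-201, MEF2A-205, MYOCD-203 and HAND1-201. All 38 member transcripts listed outside the CP to CM comparison kept an unadjusted p under 0.05 with the t distribution. The q-value limit for listing already ensured this in those comparisons, so it carries no weight. Of the 21 listed from CP to CM, 19 kept it. Over all transcripts, this left 0 calls at the earlier 2 transitions and in both lines, 1 at the CMes to CP step, and 417 higher and 144 lower from CP to CM. From iPSC to M, 3 of the 5 member transcripts were called at a q-value limit of 0.01 (without MYOCD-203 and GATA4 ENST00000646696.1), and 3 with a mean of at least 10 estimated counts (without the GATA4 transcripts at 0 in iPSCs). At the other comparisons these limits kept the counts within 1.5 times, with 17 and 16 of 21 called from CP to CM. Size limits of ln 1.5 or none changed no member count and could not, as every listed member transcript was already called. Each transcript's own variance changed none either, and it can only lower the p of listed transcripts. Of the 34 changes of a gene at a comparison, 4 were lost at a q-value of 0.01, a limit that cannot reverse a direction. The transcript with the largest absolute z in place of the highest mean gave 34 calls with no direction reversed. That count was fixed, since every listed member transcript was called. The 4 genes called in both lines were called under each of these 3 alternatives, of which only the q-value limit could have dropped a gene. Leaving out a replicate could not be run, and outlying libraries could not be looked for. No paired analysis was possible because the tables give no values per library.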
